A study of Mus musculus with 47 samples.

Results

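ProE cells were compared with MkE cells, the last and the first of 4 groups of adult mouse bone marrow cells that were placed along the erythroid path. The comparison used the 3 arrays whose titles begin with ProE and the 4 whose titles begin with MkE, 7 of the 47 arrays and 2 of the 17 groups in the series. The 3 PreCFUE and 3 CFUE arrays served to place each change along the path. All 13 arrays hold RNA of purified bone marrow cells from C57Bl6 mice, about 2000 cells a sample, and the labels call the samples of a group biological replicates. No genotype, treatment or allele is given, so the labels set the groups apart by the cells' name only. The transcripts that mark sex also differ, as given below. The labels do not spell these names out and do not give the surface markers used to purify the cells, the age in weeks, the sex, or whether animals were pooled.

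Red cells arise in adult bone marrow from progenitors that can still give megakaryocytes, the source of platelets, as well as erythroid cells. Under erythropoietin these progenitors divide, commit to the erythroid path and become proerythroblasts, which then fill with haemoglobin, lose their organelles and expel the nucleus. Haem is made from glycine and succinyl-CoA by a chain of enzymes that runs from the mitochondrion to the cytosol and back, and it needs iron brought in by transferrin. GATA1, KLF1 and TAL1 are the transcription factors best known for driving these genes.

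Values are log2 of the deposited intensities, so 1 unit is a 2-fold difference. Each gene is given by its brightest probe set, and its difference by the group means ± the standard error (SE) of a limma fit to all 47 arrays. A gene was called when the difference was at least 2-fold and the Benjamini-Hochberg adjusted p of limma was under 0.05 over the 13949 genes tested. The method of the authors was RMA, and the sources used here do not state how arrays were scaled to each other. Upper quartiles of intensity ran from 58.31 to 75.72 on the 13 arrays. The amount of RNA per cell was not measured.

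The names were set against defining markers first. Of 8 erythroid markers measured, 5 (Tfrc, Rhag, Gata1, Klf1 and Epor) were above the median of all values (3.89) in all 4 groups. Alas2 and Slc4a1 were above it in ProE only, and the remaining marker in no group. The mean over these 8 markers ran from 6.84 to 7.06 on the MkE arrays and from 9.80 to 9.91 on the ProE arrays. The mean over 7 megakaryocyte markers was 5.72 to 6.05 on MkE arrays and 4.81 to 5.07 on ProE arrays. Of these 7 markers 5 (Itga2b, Gp5, Gp9, Pf4 and Vwf) were above the median of all values in all 4 groups, ProE included. Each of the 13 arrays correlated best with an array of its own group. Correlations between MkE and ProE arrays were 0.882 to 0.900, against 0.978 to 0.991 among MkE arrays and 0.991 to 0.992 among ProE arrays.

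Both groups also differ in a transcript that marks sex. Xist, the RNA of the inactive X chromosome in females, stood at 10.96 to 11.51 on the 4 MkE arrays and at 9.81 to 11.28 on the PreCFUE and CFUE arrays, but at 4.36, 4.75 and 4.38 on the 3 ProE arrays. Eif2s3y, a gene of the Y chromosome, stood at 9.36, 9.16 and 9.04 on the ProE arrays and at 2.96 or less on the other 10. MkE, PreCFUE and CFUE therefore carry the transcripts of one sex and ProE those of the other. In every difference between ProE and MkE, and in every late change, cell stage and sex cannot be told apart, whereas the steps from MkE to PreCFUE and to CFUE lie within one class. Among genes that rose late 3.89% lie on the X chromosome, against 3.02% of all genes tested. A fit with the sex class as a block rests on PreB, the group of the series that holds arrays of both classes. Any other difference between PreB replicates 1 and 2 and PreB replicates 3 and 4 enters its sex term. For calls lost, gained or turned under this fit, sex and such differences cannot be told apart. The fit turned the sign of 118 of the 2863 called genes, among the genes described here those of Ermap, Slc40a1, Tmod1, Itgb1, Bcl2l11, Spi1, Psmb10, Tap2, Rac2, Eif2s3y and Kdm5d. Under it 2210 of the called genes kept their call and direction. A further 18 of the genes described here lost the call without turning: Add3, B2m, Cd79b, Cul4a, H2-Ab1, H2-DMa, H2-K1, Hba-a2, Hscb, Klf3, Lyrm4, Mlxip, Mt2, Psmb9, Rpia, Tap1, Vpreb1 and Xist. Another 9 gained a call: Cdc25b, Cyfip2, Mcm2, Mt1, Ngp, Pcna, Pf4, S100a8 and Stat5a. Among these S100a8 went from -3.25 to -9.72 and Ngp from -2.845 to -8.72. List counts moved too. The granulocyte and monocyte falls went from 5 to 19, the respiratory chain rises from 4 to 20, the megakaryocyte falls from 10 to 16, and the immunoproteasome and MHC class I falls from 8 to 2.

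ProE replicate 2 stands apart from the other ProE arrays in neutrophil genes. S100a8, a calcium-binding protein abundant in neutrophils, read 3.25, 7.14 and 3.29 on the 3 ProE arrays and 9.34, 6.86, 7.25 and 7.80 on the MkE arrays. Ngp, a granule protein, read 4.13, 7.74 and 4.82 on ProE. The mean over 8 granulocyte and monocyte markers had its highest ProE value, 5.44, on that array and its lowest, 4.17, on replicate 1. Among MkE arrays the range was 5.54 to 6.97, so the background of these transcripts is not even within either group.

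Of the 13949 genes, 1323 (9.48%) were called higher in ProE and 1540 (11.0%) lower. The 3 ProE arrays lay wholly above the 4 MkE arrays for 1318 of the 1323 genes called higher (9.45% of all genes tested). They lay wholly below for 1528 of the 1540 called lower (11.0% of all genes tested). The median difference of all genes was 0.00. Changes of at least 4-fold numbered 346 upward and 550 downward, and changes of at least 16-fold 50 and 94. Falls to a level under the median of all values were more frequent than rises from one. The gene was under it in ProE for 290 of the genes that fell, and in MkE for 107 of those that rose. Counts over gene lists below are to be read beside 9.48% of all genes called higher and 11.0% called lower.

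**Figure D1:**
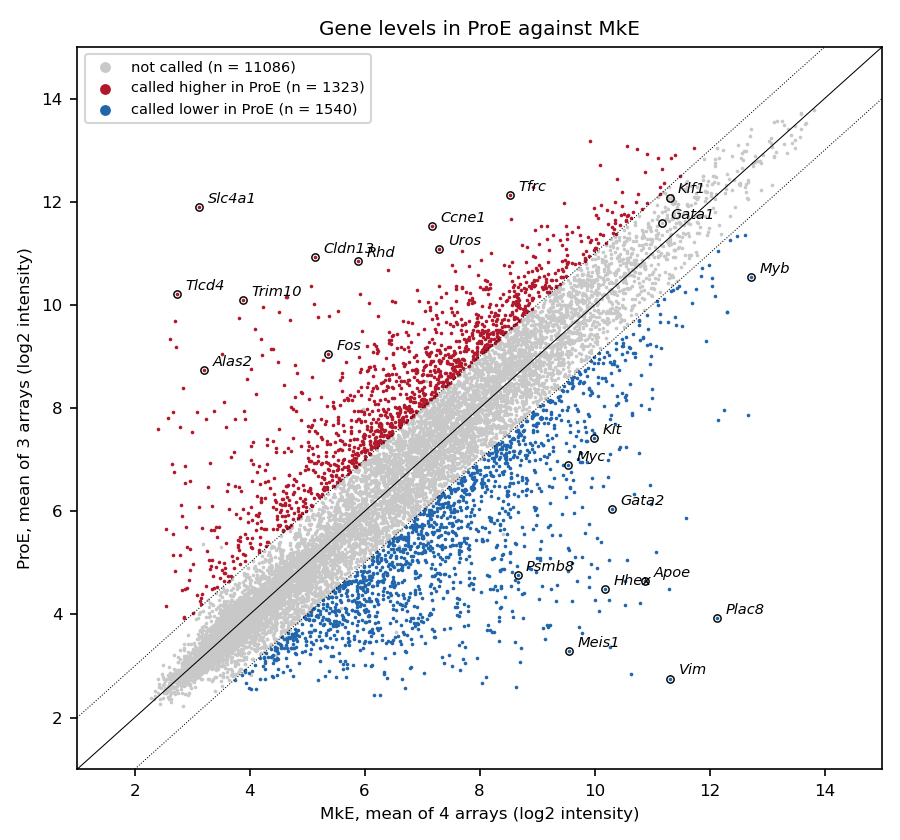
Mean log2 intensity of each tested gene in MkE (x axis, 4 arrays) and ProE (y axis, 3 arrays), with genes called higher in red, called lower in blue and the rest in grey. The solid line marks equal levels and the dotted lines 2-fold differences; Slc4a1 lies furthest above the line and Vim furthest below, while Gata1 and Klf1 lie within the dotted lines.

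The rise of Slc4a1 was the largest of all. Slc4a1 encodes band 3, which exchanges chloride for bicarbonate across the red cell membrane. It read 3.11, 3.19, 3.05 and 3.15 on the MkE arrays and 11.96, 12.06 and 11.68 on the ProE arrays. The difference was 8.77 ± 0.59 (adjusted p 3.17e-15, n = 4 and 3), and the PreCFUE and CFUE means, 3.18 and 3.21, were still at the MkE level. Its 3 probe sets gave differences from 0.02 to 8.77, so the size rests on the brightest one.

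Other leading rises spread over the path. Tlcd4, whose protein has a TLC lipid-sensing domain, went from a mean of 2.74 in MkE through 6.57 and 9.36 to 10.21 in ProE (7.46 ± 0.15). Trim10, a ubiquitin ligase of erythroid cells, went from 3.89 through 4.41 and 7.52 to 10.09 (6.20 ± 0.59). Cldn13, a claudin of mouse erythroid cells, went from 5.13 through 8.15 and 10.20 to 10.93 (5.79 ± 0.31). Trim2, also a TRIM-family ubiquitin ligase, stood at 2.61, 2.88 and 5.31 before it reached 9.35 in ProE (6.74 ± 0.28). The probe sets of a gene differed in size here too, from 0.39 to 6.74 in Trim2 and from 0.43 to 7.46 in Tlcd4. Nxpe4, Nxpe2, Rgcc, Plpp1 and Gpr155 rose by 5.53 to 6.97, and the probe sets of Plpp1 ran from 0.24 to 5.55.

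Vim, the intermediate filament vimentin, fell the furthest. It read 11.24, 11.26, 11.68 and 11.09 on the MkE arrays, 7.26, 7.54 and 7.05 in PreCFUE, 2.76, 2.55 and 3.86 in CFUE, and 2.50, 3.12 and 2.65 in ProE. The difference was -8.56 ± 0.22 (adjusted p 1.30e-27), nearly all of it before CFUE. Plac8, a small cysteine-rich protein of myeloid and lymphoid progenitors, fell at every step, from a mean of 12.13 through 9.93 and 6.03 to 3.93 (-8.20 ± 0.19). St8sia6, a sialyltransferase, fell by 7.79 and Apoe, a lipid carrier, by 6.23. Ndrg1, a stress-responsive gene, fell by 6.56 (probe sets from -6.56 to -0.68), and Ctla2a, a cysteine protease inhibitor, by 6.91.

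A change was placed early when the PreCFUE and CFUE means had both passed the midpoint between MkE and ProE, middle when CFUE alone had, and late when neither had. Among the 1323 rises 481 (36.4%) were early, 554 (41.9%) middle and 283 (21.4%) late, and in 5 PreCFUE had passed the midpoint but CFUE had not. The 1540 falls split likewise, with 586 (38.1%) early, 593 (38.5%) middle and 328 (21.3%) late, and 33 of the last kind. The split is a description and many genes lie near its limits: in 384 of the 554 middle rises an intermediate mean was within 0.25 of the midpoint. Placing each gene by its largest single step instead kept the class of 76.8% of the called genes.

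Single steps gave fewer calls than the whole path. From MkE to PreCFUE 400 genes (2.87%) rose and 620 (4.44%) fell, from PreCFUE to CFUE 150 (1.08%) rose and 220 (1.58%) fell, and from CFUE to ProE 248 (1.78%) rose and 396 (2.84%) fell. The second count depends on 1 array: without PreCFUE replicate 1, 297 genes rose from PreCFUE to CFUE. Of the genes that rose over the whole path 773 were called at no single step and 6 at all 3, and of those that fell 740 and 28.

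**Figure D2:**
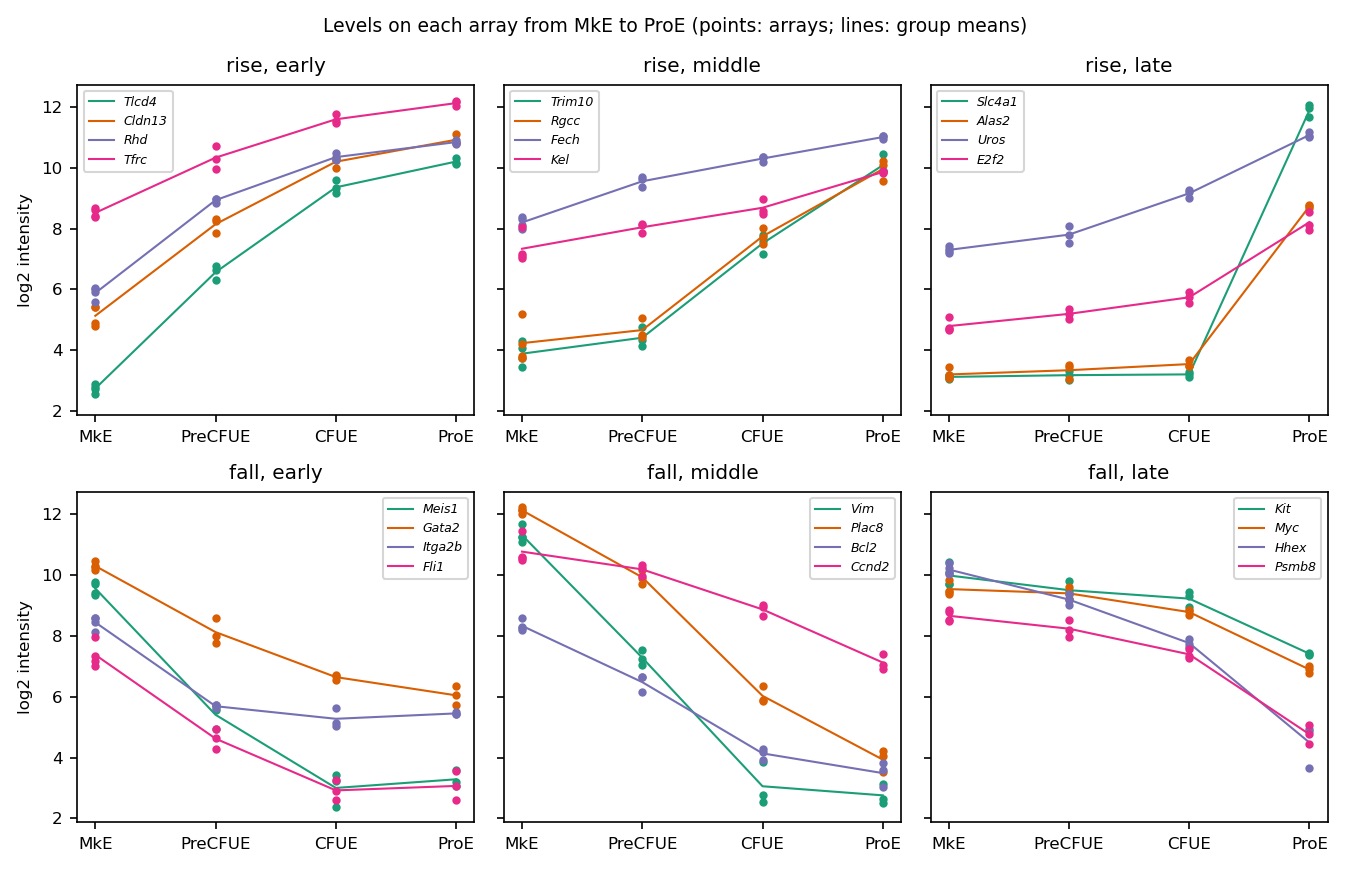
Log2 intensity on each array (points) and group means (lines) of 24 genes, 4 for each direction and placement, with the groups in order from MkE to ProE on the x axis. Slc4a1 and Alas2 stay at about 3 until CFUE and rise only in ProE, whereas Tlcd4, Cldn13, Rhd and Tfrc climb from PreCFUE on, and Meis1 and Fli1 are down by PreCFUE.

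Genes of haem synthesis rose as a group. Of 8 enzymes measured 7 were called higher and none lower, with a median difference of 2.47 against 0.00 for all genes. Alas2, the erythroid 5-aminolevulinate synthase that begins the pathway, read 3.45, 3.08, 3.09 and 3.20 in MkE, 3.06 to 3.52 in PreCFUE, 3.47 to 3.69 in CFUE, and 8.76, 8.77 and 8.69 in ProE. The difference was 5.54 ± 0.77 (adjusted p 2.29e-07), and the gene lies on the X chromosome. Alas1, the form found in all tissues, differed by -0.08 ± 0.36 (adjusted p 0.907).

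The enzymes that follow did not move at one time. Alad (1.01 ± 0.39), which joins the first precursors, and Cpox (2.14 ± 0.24) were early. Urod (1.33 ± 0.22) and Fech (2.81 ± 0.40), the ferrochelatase that inserts iron, were placed in the middle. Uros (3.78 ± 0.26) and Ppox (3.17 ± 0.46) were late, as was Alas2. Uros, which closes the porphyrin ring, read 7.19 to 7.43 in MkE, 7.53 to 8.09 in PreCFUE, 9.01 to 9.28 in CFUE and 11.03 to 11.18 in ProE, with no overlap between any of these groups. Cpox peaked in CFUE (mean 9.32) and stood at 8.81 in ProE. The call of Alad was lost when any ProE array or MkE replicate 1, 2 or 4 was left out, with differences of 0.87 to 1.02.

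Carriers and iron genes moved with them in part. Of 6 mitochondrial carriers and haem transporters 4 rose and none fell. Slc25a38, the glycine carrier, read 6.21 to 6.50 in MkE and 8.29 to 8.48 in ProE (2.00 ± 0.29), and Abcb6, Abcb10 and Tmem14c rose by 2.69, 2.58 and 1.82. Slc25a39 (-0.67) and Flvcr1 (0.63), a haem exporter, were not called. Among 13 genes of iron uptake and storage 5 rose and none fell, with a median of 0.27. Tfrc, the transferrin receptor, read 8.40, 8.60, 8.40 and 8.69 in MkE, 9.98 to 10.73 in PreCFUE, 11.49 to 11.76 in CFUE and 12.15, 12.02 and 12.21 in ProE (3.61 ± 0.26, adjusted p 3.64e-14). Slc11a2, which moves iron out of the endosome, rose by 2.13 in the middle. Slc25a37, mitoferrin, stayed between 7.32 and 8.0 on all MkE, PreCFUE and CFUE arrays and stood at 9.46, 9.46 and 9.66 in ProE. Fth1, the ferritin heavy chain, and Slc40a1, the iron exporter ferroportin, rose by 1.02 and 1.65. Both calls hung on 1 array: Fth1 differed by 1.00 without MkE replicate 3, under 2-fold, and Slc40a1 had an adjusted p of 0.0627 (limma) without ProE replicate 1.

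Of 8 genes of iron-sulphur cluster assembly 5 rose and 1 fell (median 1.12). They were Glrx5 (1.44), Lyrm4 (1.27), Isca1 (1.21), Nfs1 (1.13) and Isca2 (1.11), and Hscb, a co-chaperone of the same process, fell by 1.54. With the sex class as a block Lyrm4 (0.98) and Hscb (-0.60) came under 2-fold. Isca1 missed the threshold without ProE replicate 1 (difference 1.11, adjusted p 0.0619). With quantile normalization again 3 genes of this list rose, as Nfs1 (0.95) and Isca2 (0.91) came under 2-fold. Over the mean of all probe sets Nfs1 differed by 0.86. Of 4 haem breakdown genes both biliverdin reductases rose early, Blvrb by 1.90 and Blvra by 1.49, while the haem oxygenases Hmox1 (0.00) and Hmox2 (-0.44) were not called.

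The red cell membrane list held 26 genes, of which 13 rose and 4 fell (median 0.91). Rhd, the Rh blood group gene, was among the early rises. It read 5.59 to 6.04 in MkE, 8.85 to 8.99 in PreCFUE, 10.27 to 10.49 in CFUE and 10.80 to 10.91 in ProE, a difference of 4.96 ± 0.33. Rhag, its partner, rose by 2.64, Ank1, the ankyrin that ties band 3 to spectrin, by 3.08, Ermap by 1.71 and Mpp1 by 1.65. Mpp1 differed by 0.86, under 2-fold, over the mean of all probe sets. Slc29a1, a nucleoside transporter, Add2 (β-adducin) and Kel rose in the middle by 3.87, 2.65 and 2.52.

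Other membrane skeleton genes waited for ProE. Sptb, β-spectrin, read 4.59 to 4.99 in MkE, 4.9 to 5.32 in PreCFUE, 5.67 to 6.34 in CFUE and 7.63 to 8.45 in ProE (3.23 ± 0.21). Gypc, glycophorin C, rose by 1.48 and Epb42, protein 4.2, by 1.23, and a second probe set of Epb42 gave 6.45. Tmod1, an actin-capping protein, rose by 1.05, which fell to between 0.95 and 0.99, under 2-fold, without MkE replicate 3, MkE replicate 4 or ProE replicate 2. The 4 falls were Slc2a1, the glucose transporter (-3.46 ± 0.36, early), and 3 widely used cytoskeletal genes, Tmod3 (-1.86), Tpm3 (-1.61) and Add3 (-1.35). Over the mean of all probe sets of a gene Tpm3 (-0.35) and Add3 (-0.81) were under 2-fold, which leaves 2 falls.

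The globin call rests on the probe set and on the fit. Hba-a2, an α-globin, read 3.66 to 4.17 in MkE, 4.66 to 4.86 in CFUE and 5.70, 6.06 and 5.61 in ProE (1.82 ± 0.32, late). With the sex class as a block Hba-a2 differed by 0.055 (adjusted p 0.929, limma) and its call was lost. Hbb-b2, a β-globin, differed by 0.70 (adjusted p 0.00219, under 2-fold) on its brightest probe set and by 4.88 on its other one. The mean of both differed by 2.79 and was called. Globin copies are near-identical, so these probe sets may not tell them apart. Car2, a carbonic anhydrase, rose by 1.52 to a mean of 12.85. Car1 was already at 12.29 to 12.70 in MkE, peaked in CFUE at 13.44 and stood at 12.86 in ProE (0.31 ± 0.46, adjusted p 0.68).

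**Figure D3:**
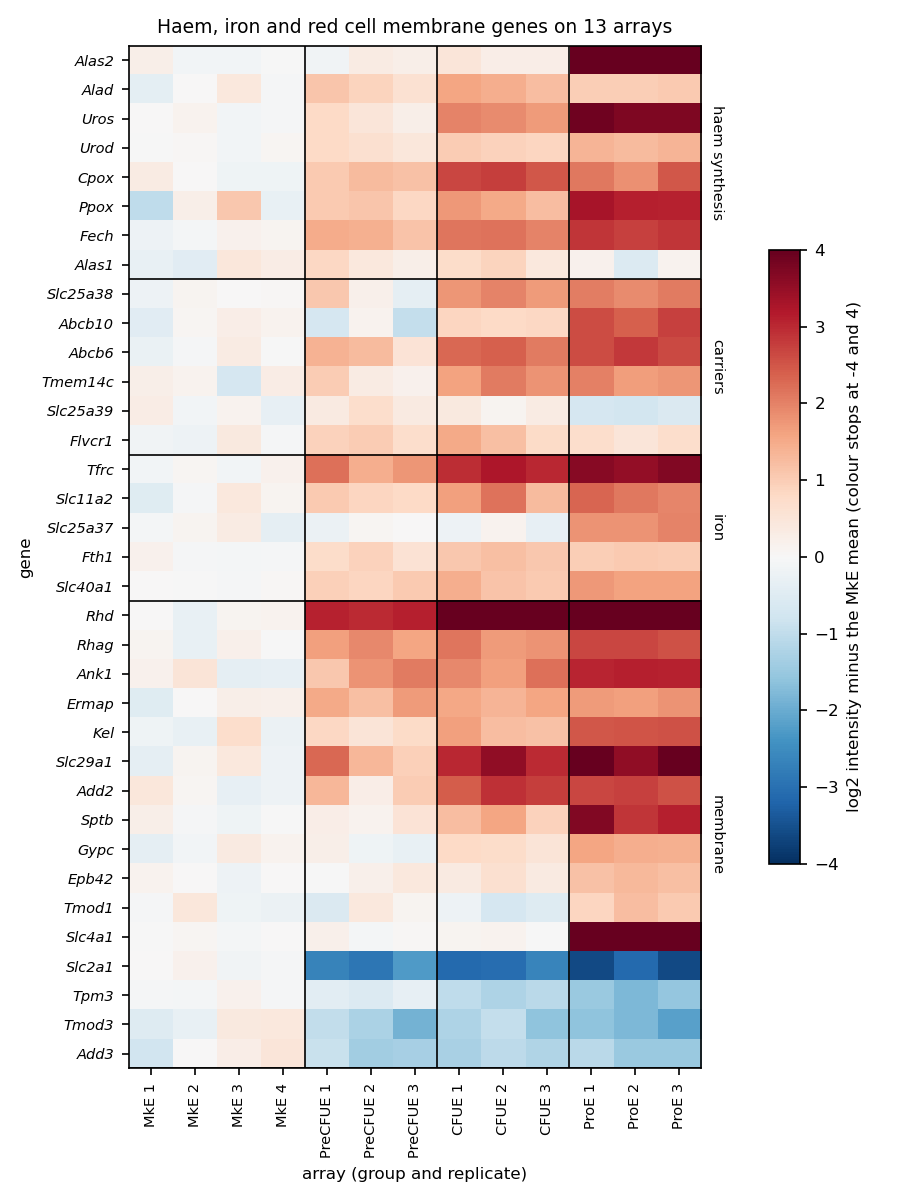
Log2 intensity minus the MkE mean for 35 haem, iron and membrane genes (rows) on each of 13 arrays (columns, by group and replicate), with colour limits at -4 and 4. Rhd and Tfrc turn red from PreCFUE on, Alas2 and Slc4a1 on the 3 ProE arrays only, and Slc2a1 turns blue at PreCFUE.

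Promoter sequence is shown for 4 of these genes, 2 early (Rhd, Cpox), 1 middle (Trim10) and 1 late (Alas2), because their windows hold the letters that GATA factors are known to bind. Windows are the 250 bases before the start of a gene in RefSeq on GRCm38.p6, written 5′ to 3′ on the gene's strand. Capitals mark AGATAA or TGATAA on either strand (TTATCT and TTATCA on the other). They are Alas2 at chrX:150547167-150547416, Trim10 at chr17:36869324-36869573, Rhd at chr4:134864286-134864535 and Cpox at chr16:58669958-58670207, all on the plus strand.
Alas2: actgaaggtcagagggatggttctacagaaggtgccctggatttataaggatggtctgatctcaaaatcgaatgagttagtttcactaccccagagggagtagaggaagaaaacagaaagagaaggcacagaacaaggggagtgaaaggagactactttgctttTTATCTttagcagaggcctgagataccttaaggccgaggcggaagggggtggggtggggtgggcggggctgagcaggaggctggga
Trim10: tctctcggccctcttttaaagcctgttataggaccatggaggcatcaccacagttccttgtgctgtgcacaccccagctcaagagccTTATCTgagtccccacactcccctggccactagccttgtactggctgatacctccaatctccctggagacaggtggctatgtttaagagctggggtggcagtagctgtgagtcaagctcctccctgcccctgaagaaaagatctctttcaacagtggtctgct
Rhd: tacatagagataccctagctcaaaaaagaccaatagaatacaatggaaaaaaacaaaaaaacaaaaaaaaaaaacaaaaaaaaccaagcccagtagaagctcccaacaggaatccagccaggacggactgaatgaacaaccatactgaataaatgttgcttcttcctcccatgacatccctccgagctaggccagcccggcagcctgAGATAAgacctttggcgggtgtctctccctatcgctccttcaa
Cpox: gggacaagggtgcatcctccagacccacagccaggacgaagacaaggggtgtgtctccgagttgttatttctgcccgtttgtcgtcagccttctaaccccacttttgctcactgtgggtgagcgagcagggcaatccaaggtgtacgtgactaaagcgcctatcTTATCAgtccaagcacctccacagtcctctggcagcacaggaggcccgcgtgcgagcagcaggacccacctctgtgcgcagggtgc
The match begins 86 bases before the start in Alas2, 163 in Trim10, 43 in Rhd and 86 in Cpox. The window of Epb42, 1 of 2 windows of Uros and 1 of 5 windows of Trim2 also hold a match, and none was found in the windows of Sptb, Ppox, Tfrc and E2f2. RefSeq windows were matched for 11211 of the tested genes. A match was present in 10.3% of their 14287 windows (16.6% of all 32851 windows), in 10.8% for genes that rose early, 9.07% middle and 13.4% late, and in 9.24%, 10.7% and 7.63% for those that fell. These letters are thus about as frequent in the windows of called genes as in all, and a match is no sign of binding.

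The transcription factors that define the lineage were not called. Gata1 read 11.09, 11.15, 11.29 and 11.17 in MkE and 11.47, 11.58 and 11.70 in ProE, with a difference of 0.41 ± 0.25 (adjusted p 0.227). Klf1 differed by 0.77 ± 0.40 (adjusted p 0.139) and Tal1 by 0.08 ± 0.21 (adjusted p 0.817). The 3 ProE arrays lay above all MkE arrays for Gata1, but the difference did not pass the test. Of 20 erythroid transcription factors 2 rose and 6 fell (median -0.19), beside 9.48% and 11.0% of all genes tested. Over the mean of all probe sets 1 rose and 3 fell.

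The 2 that rose did so late. E2f2, an E2F of dividing erythroblasts, read 4.66 to 5.09 in MkE, 5.55 to 5.91 in CFUE and 7.95, 8.13 and 8.56 in ProE (3.42 ± 0.39, adjusted p 4.22e-09). Klf3, a repressor whose gene is known as a KLF1 target, rose by 2.03, and by 0.80, under 2-fold, over the mean of its 7 probe sets. With the sex class as a block its adjusted p was 0.34 (limma). Among the falls, Myb, a factor of progenitors, read 12.54 to 12.98 in MkE, 12.21 to 12.57 in PreCFUE, 11.47 to 11.73 in CFUE and 10.47 to 10.59 in ProE (-2.18 ± 0.18). Cbfa2t3, the corepressor ETO2, fell by 3.12 and Nfe2 by 2.07. Bach1, Foxo3 and Sp1 fell by 1.18, 1.09 and 1.08, and Sp1 came under 2-fold without MkE replicate 3 (-0.94) or ProE replicate 1 (-0.99).

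The receptors of both growth factors went opposite ways. Epor, the erythropoietin receptor, read 7.48, 6.97, 8.20 and 7.66 in MkE and 8.79, 8.71 and 8.64 in ProE, with its highest group mean in CFUE (9.02). The difference was 1.14 ± 0.27, and 0.94 without MkE replicate 2. Kit, the receptor of stem cell factor, held between 8.94 and 10.45 on the MkE, PreCFUE and CFUE arrays and read 7.42, 7.38 and 7.44 in ProE (-2.58 ± 0.41, adjusted p 2.26e-06). Of 18 genes of both pathways 2 rose and 4 fell (median -0.56), beside 9.48% and 11.0% of all genes tested. Over the mean of all probe sets of a gene 1 fell, as Gab2 (-0.77), Stat5b (-0.68) and Spred2 (-0.57) came under 2-fold. The adaptor Gab1 rose by 1.59 and its relative Gab2 fell by 1.91. Stat5b fell by 1.43, while Stat5a (-0.96) and Jak2 (-0.47) had smaller differences and were not called. Spred2, an inhibitor of Ras signalling, fell by 1.16, which was under 2-fold (-0.977 and -0.996) without MkE replicate 3 or ProE replicate 1.

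Mitosis genes rose as a group. Of 26 measured 25 rose, with a median of 2.26, and 13 of the rises were early. Kif20a, a mitotic kinesin, rose by 3.64, Aurka by 3.09 and Plk1, both mitotic kinases, by 2.79. Aurka read 5.49 to 6.25 in MkE, 6.94 to 7.60 in PreCFUE, 7.81 to 8.25 in CFUE and 8.80 to 9.15 in ProE. The exception was Cep55, a protein of the final cut between daughter cells, which read 6.76 to 7.20 in MkE and 2.50 to 3.08 in ProE (-4.17 ± 0.39), although its other probe set gave 0.02.

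DNA replication genes behaved likewise. Of 30 measured 24 rose and none fell (median 1.72). Orc1, of the origin recognition complex, rose by 3.85, Rrm2, of ribonucleotide reductase, by 3.36, Cdc6, a loading factor, by 3.35 and Tk1, thymidine kinase, by 2.84. Those not called included Mcm2, Mcm5 and Pcna, which were bright in MkE already (10.29, 11.30 and 11.10) and differed by 0.99, 0.98 and 0.99. The mean level of the 26 mitosis genes was 6.95 to 7.45 on MkE arrays, 8.18 to 8.49 in PreCFUE, 8.61 to 8.75 in CFUE and 9.21 to 9.36 in ProE. The array with the lowest value was MkE replicate 1.

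The regulators of the G1 phase exchanged members. Ccne1, cyclin E1, read 7.56, 7.04, 6.90 and 7.18 in MkE, 9.79 to 10.50 in PreCFUE and 11.41 to 11.70 from CFUE on (4.36 ± 0.24). Ccne2 rose at every step, by 1.37, 1.56 and 1.48, to 4.41 over the path. Ccnd2, cyclin D2, fell by 3.65, Cdk6, its kinase, by 1.68 and Ccnd1 by 1.16. Ccnd3, cyclin D3, rose late by 1.89 on its brightest probe set, but its 3 probe sets ran from -2.39 to 1.89 and their mean differed by -0.060. Rb1, the retinoblastoma protein, rose late by 2.26, E2f7 by 1.67, Rbl1 by 1.22 and Cdk2 by 1.21. In all 8 of these 21 genes rose and 3 fell, beside 9.48% and 11.0% of all genes tested. Over the mean of all probe sets Cdk2 (0.60) and Ccnd1 (-0.62) came under 2-fold.

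Brakes on the cycle were mixed as well, with 3 of 16 higher and 2 lower, beside 9.48% and 11.0% of all genes tested. Cdkn2c, p18, an inhibitor of cyclin D kinases, rose by 2.15, mostly in ProE, Cdkn3 by 2.39 and Btg2 by 1.96. Over the mean of all probe sets Btg2 (1.03) had an adjusted p of 0.0546 (limma). Ccng2, cyclin G2, a gene of resting cells, read 9.01 to 9.44 in MkE, 4.34 to 5.41 in PreCFUE and 3.43 to 4.03 in ProE (-5.37 ± 0.31), and Btg1 fell by 2.32. Of 12 genes of the Myc network 6 fell and 1 rose. Mycn read 9.20 to 10.36 in MkE and 4.82 to 4.98 in PreCFUE (-4.30 ± 0.33 over the path). Myc held until CFUE, with means of 9.54, 9.40 and 8.78, and stood at 6.79, 6.90 and 7.0 in ProE (-2.65 ± 0.24). Mxd4, Mnt, Mlxip and Mga, partners or relatives of Max-binding proteins, fell by 1.30 to 2.70, and Mxd3 rose by 1.32. Mnt (-0.57) and Mga (-0.61) came under 2-fold over the mean of all probe sets.

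The counts of growth genes stand beside 9.48% of all genes called higher. Of 25 ribosome biogenesis genes 2 rose, Pes1 by 1.61 and Nolc1 by 1.28, and none fell (median 0.22). In the respiratory chain 4 of 25 rose, Cyc1, Ndufs1, Uqcrfs1 and Sdhd, by 1.11 to 1.5, and the median was 0.67. Of 13 translation and heat shock genes 2 rose. Among 14 genes of the pentose phosphate path and nucleotide synthesis 3 rose, Rpia by 1.45, Ctps by 1.25 and Taldo1 by 1.08.

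Glycolysis genes split by isoform, with 2 of 19 higher and 5 lower, beside 9.48% and 11.0% of all genes tested. Pklr, the pyruvate kinase gene of liver and red cells, read 5.71 to 6.12 in MkE and 8.29 to 8.55 in ProE (2.48 ± 0.22), while Pkm, the form of most other tissues, read 5.85 to 6.90 and 3.28 to 3.63 (-2.93 ± 0.32). Both were near their final level by PreCFUE, at means of 8.71 and 3.96. Phosphofructokinase showed the same kind of exchange, since Pfkm rose by 1.88 and Pfkp fell by 2.46. Hk2 fell by 2.97, Pgam1 also fell (-1.93), and so did Slc2a1, as given above.

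**Figure D4:**
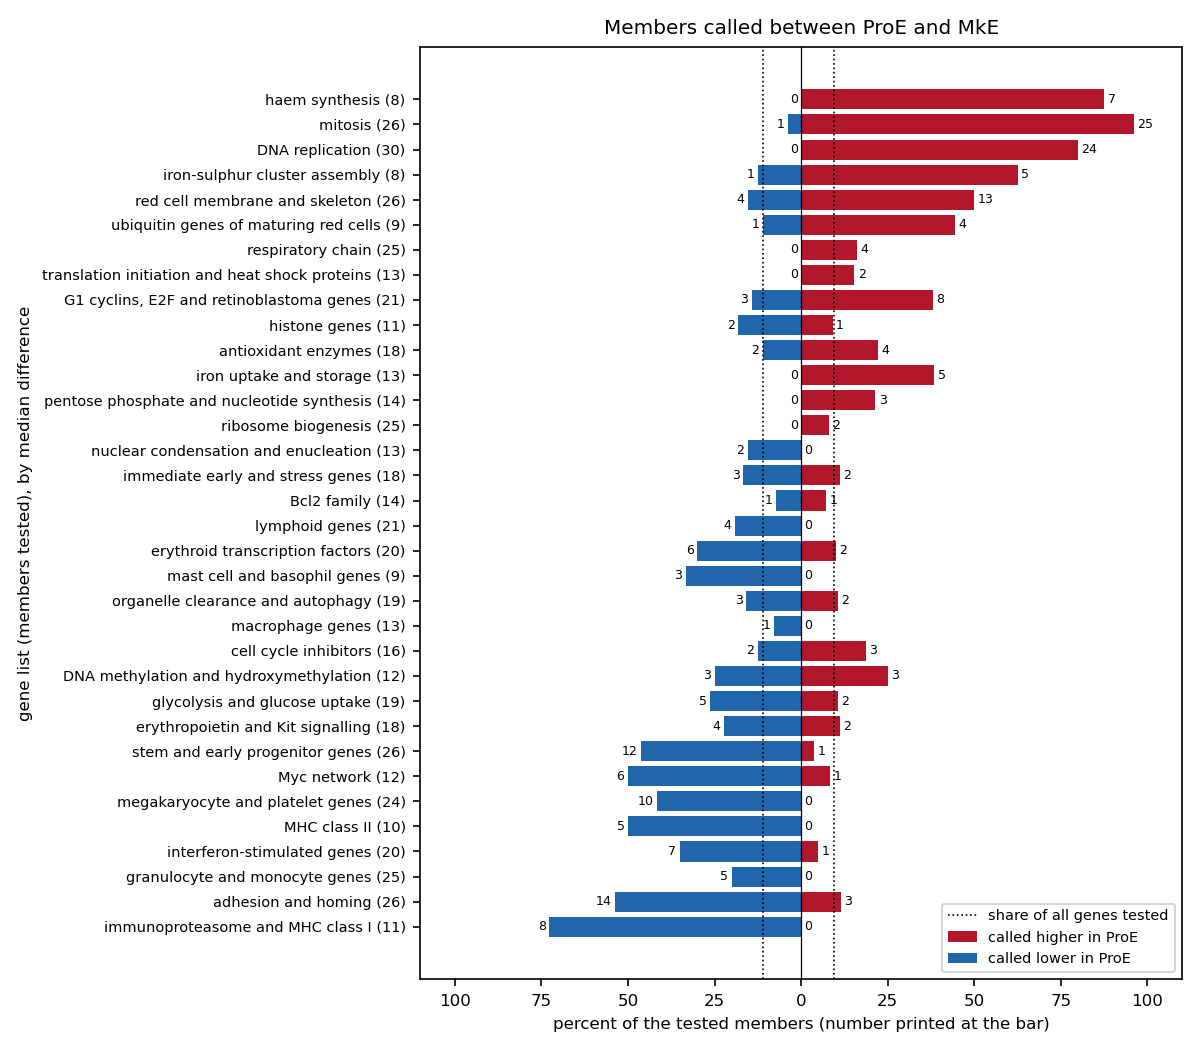
Percent of the tested members of each gene list (at least 8 tested, number in brackets) called higher in ProE (red, right) or lower (blue, left), ordered by the median difference, with the number of genes at each bar and dotted lines at the shares of all genes tested, 9.48% and 11.0%. Haem synthesis, mitosis and DNA replication have 7, 25 and 24 members higher, and the immunoproteasome and MHC class I list 8 lower.

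Of 26 stem and progenitor genes 12 fell, 10 of these early, 1 rose and 13 were not called (median -0.61). Meis1, a homeobox factor, read 9.35, 9.41, 9.77 and 9.71 in MkE, 5.70, 5.58 and 4.94 in PreCFUE and 3.08 to 3.59 in ProE (-6.28 ± 0.27, with probe sets from -6.28 to -0.81). Angpt1, a ligand of the Tek receptor, fell by 6.01 and Tek itself by 3.62. Gata2, the GATA factor that precedes GATA1, fell from a mean of 10.30 through 8.12 and 6.65 to 6.05 (-4.25 ± 0.22). Erg fell by 4.24, Slamf1, the surface protein CD150, by 3.41, Hoxa9 by 2.83, Txnip by 2.64 and Cd34 also fell (-1.93). Mllt3 was the 1 that rose, by 2.20.

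Megakaryocyte genes gave 10 falls and no rise among 24 (median -0.74), 8 of the falls early. Itga2b, the integrin CD41, read 8.12 to 8.60 in MkE, 5.61 to 5.73 in PreCFUE and 5.43 to 5.49 in ProE (-2.99 ± 0.25). Mef2c and Fli1, transcription factors of the lineage, fell by 4.97 and 4.31, Plek, pleckstrin, by 4.58, the thrombin receptor gene F2r by 4.39 and Cd9 by 3.07. Gp5, a platelet glycoprotein, fell late, from 6.20 to 7.72 on MkE arrays to 4.77 to 5.35 on ProE arrays (-1.71 ± 0.32). Vwf (-0.63) was not called. Pf4 (-1.27, adjusted p 0.188) was not called in the fit of all arrays, but was in limma fits of the MkE and ProE arrays alone (adjusted p 2.4e-05), of the 4 groups (3.84e-06), with array weights (0.00722) and under the sex block (0.00202). In RNA of a whole sample, fewer cells of a kind and less RNA in each cell cannot be told apart.

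**Figure D5:**
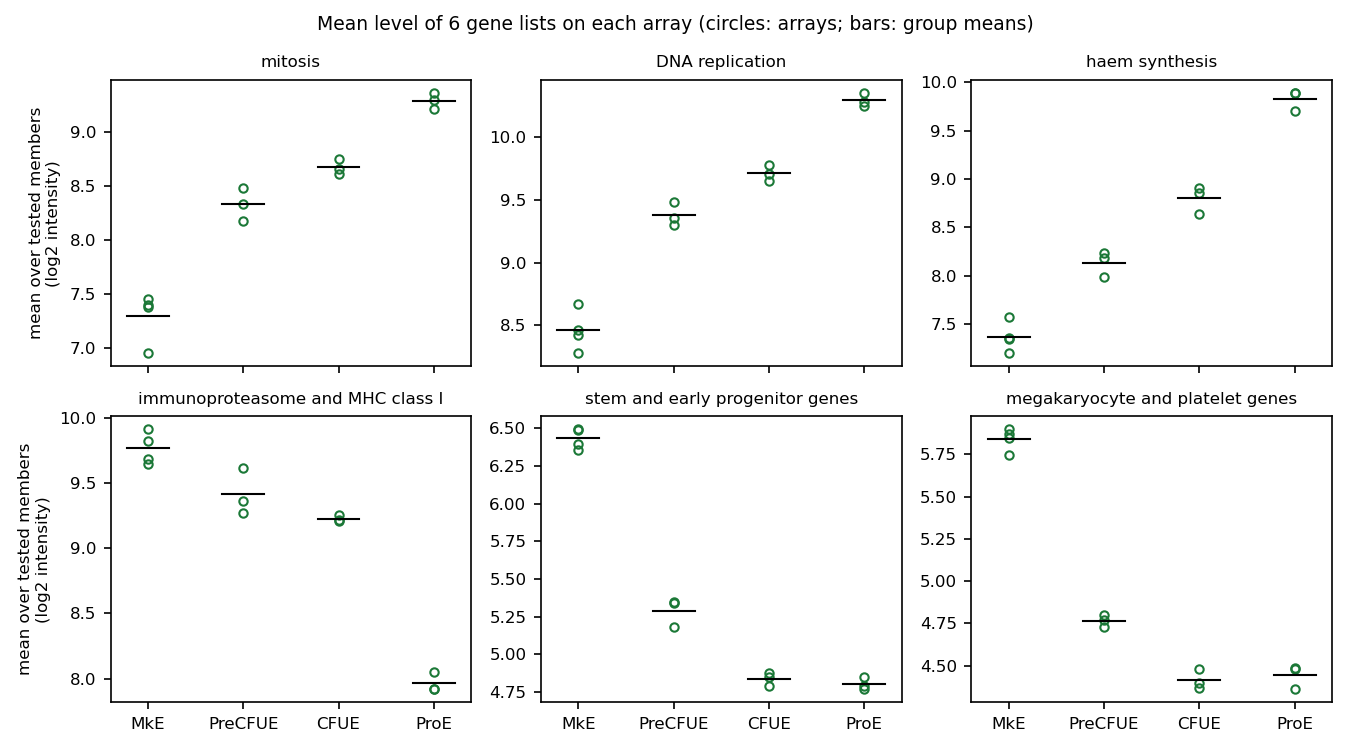
Mean log2 intensity over the tested members of 6 gene lists on each array (circles), with group means as bars and the groups in order from MkE to ProE. The mitosis and haem synthesis means climb at each step, the stem and megakaryocyte means drop most at PreCFUE, and the immunoproteasome mean is lower on the 3 ProE arrays than on the other 10.

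Genes of other blood lineages were lower in ProE where they were called. Of 25 granulocyte and monocyte genes 5 fell and none rose, beside 11.0% and 9.48% of all genes tested. In a fit of the MkE and ProE arrays alone 10 fell. Prtn3, proteinase 3, fell by 1.97, Csf2ra by 1.67, Spi1, the factor PU.1, by 1.36, and the lysozymes Lyz1 and Lyz2 by 3.94 and 2.01. Lyz2 lost its call without ProE replicate 1 or 3, at -1.81 and -1.87. Lyz1 read 3.62, 6.64 and 3.76 on the ProE arrays, high on replicate 2. S100a8 differed by -3.25 (adjusted p 0.0907), and by -4.55, called, without that array. The part of this array's neutrophil transcripts in the other differences was not tested.

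Lymphoid genes gave 4 falls among 21, beside 11.0% of all genes tested, namely Nkg7 (-5.63), Satb1 (-3.19), Vpreb1 (-1.63) and Cd79b (-1.60). Nkg7, a granule protein of cytotoxic cells, read 8.97 to 9.33 in MkE, 5.28 to 5.59 in PreCFUE and 3.47 to 3.58 in ProE. Of 9 mast cell and basophil genes 3 fell, Slc18a2, a monoamine transporter, by 4.73, Cpa3, a mast cell protease, by 3.95 and Srgn, a granule proteoglycan (-1.93). Siglecf, known from eosinophils, fell by 4.69, 1 of 3 genes of that list. Of 13 macrophage genes 1 fell and none rose, beside 11.0% and 9.48% of all genes tested.

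The antigen-processing genes fell late. Of 11 genes of the immunoproteasome and MHC class I 8 fell and none rose (median -1.57), and 7 of the falls were placed late. Psmb8, a catalytic subunit that replaces the standard one, read 8.51, 8.79, 8.48 and 8.86 in MkE, 7.97 to 8.54 in PreCFUE, 7.26 to 7.57 in CFUE and 4.43, 4.78 and 5.08 in ProE (-3.90 ± 0.33, adjusted p 2.10e-12). Psmb9 fell by 2.72 and Psmb10 by 1.57. Nlrc5, the activator of class I genes, fell by 2.50, H2-K1, a class I heavy chain, by 2.44, Tap1, a peptide transporter, by 2.03, B2m, the light chain, by 1.27 and Tap2 by 1.20. H2-D1 (-0.81) was not called. Over the mean of all probe sets Tap1 differed by -0.50, under 2-fold. The mean over the 11 genes was 9.21 to 9.92 on the 10 arrays before ProE and 7.92 to 8.05 on the ProE arrays. Since this fall lies at the step where the sex class changes, stage and sex cannot be told apart for it. With the sex class as a block 2 of the 8 falls, Psmb8 and Nlrc5, kept their call. Psmb9 (-0.39), Tap1 (-0.44) and B2m (-0.78) then came under 2-fold and H2-K1 (-1.07) had an adjusted p of 0.0748 (limma). Psmb10 (0.54) and Tap2 (1.02) turned, and Tap2 was called higher (adjusted p 0.0225).

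Of 10 MHC class II genes 5 fell, among them H2-Ob (-5.16), H2-DMa (-2.95), H2-Oa (-2.75) and H2-Ab1 (-1.96). Over the mean of all probe sets H2-Ab1 differed by -0.62 (adjusted p 0.278, limma). Interferon-stimulated genes gave 7 falls and 1 rise among 20, beside 11.0% and 9.48% of all genes tested. Ifitm1, a membrane protein that blocks virus entry, fell early by 4.39, Gbp2 by 3.51 and Oasl2 late by 3.11, and Isg20 rose by 1.73.

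Surface adhesion was lower for 14 of 26 genes and higher for 3 (median -1.22). Itga6 and Itgal, integrin α chains, fell by 3.74 and 3.65, Itgb2, the β chain of leukocyte integrins, by 3.24, Icam2 by 3.33 and Ptprc, CD45, by 2.74. Cd48 read 7.37 to 8.70 in MkE, 5.84 to 6.39 in CFUE and 3.38 to 3.90 in ProE (-4.43 ± 0.48). Those that rose were Cd82 (3.55), Cd24a (2.29), the heat-stable antigen of erythroblasts, and Itgb1 (1.80). Itgb1 differed by 0.82, under 2-fold, over the mean of all probe sets.

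In the Bcl2 family 1 of 14 genes rose and 1 fell, shares close to the 9.48% and 11.0% of all genes. Bcl2, which protects from apoptosis, fell from 8.20 to 8.60 on MkE arrays to 3.03 to 3.83 on ProE arrays (-4.85 ± 0.22), and Bcl2l11, the death activator BIM, rose by 1.58. Bcl2l1, the anti-apoptotic gene best known in erythroblasts, differed by 0.09 (adjusted p 0.786).

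Immediate early genes differed in direction. Fos read 4.38, 6.03, 5.68 and 5.38 in MkE, 3.12 to 3.84 in CFUE and 8.97, 8.98 and 9.20 in ProE. The difference from MkE was 3.68 ± 1.36 (adjusted p 0.0313). That call was lost without MkE replicate 1 or 4 or any ProE array, with adjusted p of 0.0516 to 0.0799 (limma). Jun, its partner, read 2.96 to 3.36 in MkE and 5.17 to 5.47 in ProE, without overlap, and was not called (2.18, adjusted p 0.173). Its call depends on the arrays behind the spread: it was called in a limma fit of the MkE and ProE arrays alone (adjusted p 1.26e-07), of the 4 groups (1.53e-09) and with array weights (0.034). Egr1 fell by 4.48 and Ier3 by 1.99.

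Among genes of red cell maturation, 4 of 9 ubiquitin genes rose and 1 fell. Besides Trim10, Ubac1 rose by 3.11, Fbxo7 by 1.23 and Cul4a by 1.01, which was under 2-fold (0.96 to 0.99) without MkE replicate 2 or ProE replicate 1 or 2. Of 19 autophagy and organelle clearance genes 2 rose and 3 fell, beside 9.48% and 11.0% of all genes tested. Wipi1 rose by 2.31, and by 0.90, under 2-fold, over the mean of all its probe sets. Atg4b rose by 1.53. The mitochondrial clearance genes Bnip3 (-2.57) and Pink1 (-2.39) were among the falls. No gene of 13 for nuclear condensation and enucleation rose and 2 fell, beside 9.48% and 11.0% of all genes tested. These counts depend on the fit. Over the mean of all probe sets 1 rose and none fell. With the sex class as a block 6 rose, and with no minimum fold 3 rose. Diaph1, an actin nucleator, fell by 1.61 and Rac2 by 1.18, with an adjusted p of 0.0615 (limma) without ProE replicate 2. Antioxidant genes gave 4 rises and 2 falls among 18, beside 9.48% and 11.0% of all genes tested. Txnrd2, Gclc, Prdx2 and Prdx3 rose by 1.46 to 2.51, and Cat, catalase, fell by 1.16.

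Chromatin genes showed a few large changes. Macroh2a1, a histone variant of silent chromatin, read 10.88 to 11.15 in MkE, 10.61 to 10.75 in PreCFUE, 9.68 to 9.77 in CFUE and 8.17 to 8.22 in ProE (-2.82 ± 0.17). Of 12 DNA methylation genes 3 rose, among them Uhrf1 (1.23), which guides the maintenance methyltransferase, and Mbd2 (1.41). The dioxygenases Tet2 and Tet1 fell by 2.30 and 1.77, and Dnmt3a by 1.10. Tet2 read 4.96, 6.94 and 4.22 on the ProE arrays, with replicate 2 highest. Dnmt3a came under 2-fold without MkE replicate 3 (-0.94) or ProE replicate 2 (-0.99).

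Late falls outside these lists were led by Gdpd3, a phosphodiesterase, and Hhex, a homeobox factor. Gdpd3 read 9.82 to 10.20 in MkE, 7.47 to 7.80 in CFUE and 4.19 to 4.38 in ProE (-5.72 ± 0.24). Hhex read 10.04 to 10.39 in MkE, 7.65 to 7.91 in CFUE and 3.65, 4.88 and 4.94 in ProE (-5.69 ± 0.24). Slfn8 fell by 3.83. The late rises Slc6a20a, an amino acid transporter, and Apol11b stood at 4.68 and 2.69 in CFUE and at 7.93 and 7.81 in ProE.

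In a few genes the intermediate groups lay beyond both ends. In 60 genes (0.430%) the PreCFUE or CFUE mean was called above both MkE and ProE, and in 52 (0.373%) below both. Mt2, a metallothionein, a metal-binding protein, read 6.46 to 6.77 in MkE, 10.16 to 10.44 in PreCFUE, 10.55 to 10.81 in CFUE and 8.47 to 8.70 in ProE. Mt1 did likewise with means of 9.27, 10.93, 10.66 and 9.21, so that its ends differed by -0.05 only. Endog, a mitochondrial nuclease, had means of 5.63, 7.63, 7.39 and 6.14. In the other direction, Cyfip2 had means of 6.21, 4.23, 3.64 and 7.04, and Cdc25b, a phosphatase of mitotic entry, 6.67, 5.08, 4.14 and 6.96. Trp53inp1 fell from 9.95 to 6.16 in PreCFUE and stood at 8.30 in ProE. In the fit of all arrays a comparison of the ends alone calls neither Mt1 nor Cyfip2 nor Cdc25b. With the sex class as a block Mt1 (-1.67), Cyfip2 (2.32) and Cdc25b (2.16) were called between the ends. Cyfip2 was also called without MkE replicate 3 (1.02).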

How the data were processed

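RNA of purified mouse cells was hybridised to Affymetrix arrays. The authors deposited linear intensity values, 1 per probe set and array, calculated with RMA per the labels' protocols and the series' design text. For software and genome build, the version is not given in the sources used here. Log2 was taken with no pseudocount. Of 45101 probe sets, 34958 had 1 gene symbol in the platform annotation, 932 several and 9211 none listed, and only the first were used. Each of 18194 genes was represented by its brightest probe set over all arrays. The 13949 genes with a group mean above the median of all values were tested with limma 3.58.1 in R 4.3.3, in 1 fit of 17 group means to 47 arrays (30 residual degrees of freedom), with two-sided, Benjamini-Hochberg adjusted p. The fit was tested on simulated data.

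The number of arrays limits the precision. Replicates are samples the labels call biological. The members and gene lists were chosen with earlier results of these data known, so counts over a list are descriptions beside those of all genes. Named genes were the largest changes overall and for each placement, those furthest beyond both ends, and list members. Some were picked for a known function. RMA and the choice of probe set compress low values, and 529 of 1841 called genes with several probe sets had probe sets that differed in sign.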

Additional observations from a re-analysis of the deposited data

Results flagged for a closer look

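Single MkE arrays stood apart from the other 3 MkE arrays in 13 of the 233 genes named above, by a gap test. Chance alone passes it in about 1 of 20 groups. The count is near that share, but the genes were not spread evenly over the arrays, and the causes were not tested. MkE replicate 3 was the array in 10 of them. This array also had an upper quartile of intensity of 75.72, against 59.87 to 62.86 on the other MkE arrays. MkE replicate 3 was high in Ccnd2 (11.46, the others up to 10.59), Ctps (9.47, others up to 8.90), E2f7 (6.12, others up to 5.50), Itgal (7.89, others up to 7.07), Kel (8.05, others up to 7.17), Mlxip (7.64, others up to 6.85), Mycn (10.36, others up to 9.39), Tpm3 (11.45, others up to 11.23) and Vwf (7.47, others up to 6.90), and low in Tmem14c (7.74, others from 8.53). MkE replicate 1 was high in Fth1 (11.29, others up to 11.09), Lyz1 (8.87, others up to 8.55) and Tal1 (9.63, others up to 9.32).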

How the results depend on the processing

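Of the 2863 genes called between ProE and MkE, 2681 to 2862 kept their call and direction when any 1 of the 13 arrays was left out, and 90.5% to 96.4% their placement. The rises then numbered 1198 to 1420 and the falls 1427 to 1586. From MkE to PreCFUE they numbered 316 to 480 and 519 to 677, from PreCFUE to CFUE 107 to 297 and 191 to 226, and from CFUE to ProE 197 to 261 and 319 to 396. Early rises and falls numbered 375 to 581 and 502 to 640, middle ones 453 to 659 and 566 to 627, and late ones 252 to 307 and 312 to 353. Genes beyond both ends numbered 47 to 65 above and 35 to 62 below. The 297 rises from PreCFUE to CFUE came without PreCFUE replicate 1. Array weights gave 245.

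The mean of all probe sets of a gene, in place of the brightest, called 1091 rises and 1047 falls over the path. Of the 2863 called genes 2007 kept their call and direction, fewer than the 2210 under the sex block. From MkE to PreCFUE this mean called 246 rises and 392 falls, and from PreCFUE to CFUE 129 falls. From CFUE to ProE it called 159 rises and 233 falls. It placed 394 falls in the middle and 213 late, and left 38 genes above and 19 below both ends. Ccnd3 turned to -0.060. Of the genes described here 23 lost their call over this mean and 3 gained one. Rises that lost it were Btg2, Cdk2, Itgb1, Klf3, Mpp1, Nfs1, Sdhd and Wipi1. Falls that lost it were Add3, Bach1, Ccnd1, Diaph1, Foxo3, Gab2, H2-Ab1, Mga, Mnt, Rac2, Sp1, Spred2, Stat5b, Tap1 and Tpm3. With no minimum fold 2453 genes rose and 2521 fell. Placing by the largest step gave 327 middle rises, 285 middle falls and 496 late falls.

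Blocked on sex class, the fit gave 2648 rises over the path, 57.7% of the calls against 46.2%, and 1398 rose and 892 fell from CFUE to ProE. Late rises numbered 1565, late falls 938 and genes below both ends 89. Its sex term comes from PreB alone and also holds any other difference between the PreB arrays of both classes. Under this fit 61.6% of the called genes kept their placement. The fit turned Ermap to -0.19, Slc40a1 to -0.72, Tmod1 to -0.56, Itgb1 to -0.060, Bcl2l11 to -0.33, Spi1 to 0.0063, Psmb10 to 0.54, Tap2 to 1.02, Rac2 to 1.18, Eif2s3y to -0.93 and Kdm5d to -1.91. The cause of these shifts was not tested.

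Deviations from the group means of arrays with the same replicate number correlated by -0.397 to 0.238. Arrays with different numbers were not compared, so these values do not settle whether the numbers pair the arrays. With the replicate block 1294 genes rose and 1568 fell, and 2750 of the called genes kept their call. Genes of the X and Y chromosomes were left out as an alternative chosen after seeing the data. The filter, a floor of 16, centring, renewed quantile normalization, a trended spread and fits to fewer groups kept each of the counts of the comparison, its steps and placements within 1.5 times. Values near background limit how low a fall can be read.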
